A study of Homo sapiens with 16 samples.

Results

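The 33 genes described here carry pyruvate into the citrate cycle and run the cycle: the pyruvate dehydrogenase complex (PDHA1, PDHB, DLAT, DLD, PDHX), the mitochondrial pyruvate carrier (MPC1, MPC2), pyruvate carboxylase (PC), the enzymes of the cycle from citrate synthase to malate dehydrogenase, the enzymes of the malate-aspartate shuttle, glutamate dehydrogenase (GLUD1) and the malic enzymes. They were taken by name and not by their measured values from the 43388 genes of the deposited table, though with earlier results of these data known. All 33 were found, and all 33 were among the 16122 genes that reached a mean of at least 1 TPM and were tested.

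Pyruvate made by glycolysis enters the mitochondrion through the carrier and is either oxidised to acetyl-CoA by pyruvate dehydrogenase or carboxylated to oxaloacetate. The citrate cycle oxidises acetyl-CoA and hands electrons to the respiratory chain as NADH and, at complex II (succinate dehydrogenase), directly. The adult heart meets most of its energy demand by oxidative metabolism and expresses these enzymes strongly, and the malate-aspartate shuttle moves the reducing equivalents of glycolysis into its mitochondria.

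RNA was measured in cardiomyocytes differentiated from the human iPSC line WTC11 with small molecules that modulate Wnt signalling (hPSC-CMs). The 4 groups were Day 16 RPMI/B27, sampled when the media were split, and cells kept from then to Day 30 in RPMI/B27, in RPMI_glcM/B27, which is RPMI with glucose lowered to 5 mM to match HPLM, or in human plasma-like medium (HPLM/B27). All 4 groups received the B27 supplement, and the standard RPMI/B27 differed from RPMI_glcM/B27 in its higher glucose. Each group had 4 libraries, each from a well; the series description names 3 wells per medium where the labels list 4. The wells came from a single differentiation of a single line, so the p-values measure the spread between wells. In these bulk samples, fewer cells of a type and less RNA per cell cannot be told apart.

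The libraries held 7744768 to 16183655 reads, recovered from the steps of the TPM. TPM correct a gene's reads for its length and set each library's total to 1000000, so abundant RNAs change the values of all others. The largest of these shares was that of RNR2, with 41.0 to 48.3% of all TPM, and RN7SK took 8.76 to 13.8%. By group, RNR2 held 41.4 to 43.9% at Day 16 and 41.0 to 48.1% in Day 30 RPMI/B27. It held 42.0 to 45.5% in RPMI_glcM/B27 and 46.2 to 48.3% in HPLM/B27. RNR1, like RNR2 a ribosomal RNA of the mitochondrion, lay between 49.5 and 29276 TPM. A single scale factor per library, the median ratio of its genes to their geometric mean over the libraries, ranged from 0.722 in Day 30 RPMI/B27 replicate 4 and 0.788 in replicate 3 of the same group to 1.32 in Day 16 replicate 2. Tests were therefore made on TPM as deposited and, side by side, on TPM divided by these factors ("rescaled"), and the calls of members that rest on Day 30 RPMI/B27 were repeated without its replicates 3 and 4 (the low-factor libraries). In all of these fits the 4 groups shared one estimate of the spread, and fits of only the groups compared are given where they end a call. Differences are log2 fold changes on the log2(TPM + 1) scale, given ± SE from limma's moderated test, and a gene was called higher or lower where its p, adjusted over all 16122 genes by the Benjamini-Hochberg method, was under 0.05.

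The labelled cell type was checked against 7 cardiomyocyte markers, whose summed level was 11015 to 15041 TPM over the libraries. Against Day 16 on TPM, 1 of the 7 was higher and 2 lower in RPMI/B27, where 2.08% of all genes were higher and 17.8% lower. In RPMI_glcM/B27 2 were higher and 3 lower, where 3.34% of all genes were higher and 17.8% lower. In HPLM/B27 1 was higher and 3 lower, where 3.00% were higher and 22.4% lower. None was called between Day 30 media on TPM. Markers of other cells moved with the groups as well. The summed level of 14 hepatic endoderm markers, AFP and ALB among them, was 477 to 846 TPM at Day 16, 330 to 582 TPM in Day 30 RPMI/B27, 95.1 to 219 TPM in RPMI_glcM/B27 and 72.1 to 213 TPM in HPLM/B27. That of 10 fibroblast markers was 241 to 439, 152 to 302, 119 to 164 and 123 to 188 TPM in the same order, and that of 7 smooth muscle markers 376 to 836, 241 to 1007, 268 to 352 and 285 to 506 TPM, with MYH11 at 0 in all libraries. Against Day 30 RPMI/B27, 6 of the 10 hepatic endoderm markers tested were lower in RPMI_glcM/B27 and 8 in HPLM/B27, and 1 of 7 fibroblast markers was lower in each, on TPM. Of all genes, 0.837% were lower in RPMI_glcM/B27 and 0.893% in HPLM/B27. After rescaling these counts were 7 and 9 hepatic endoderm markers and 4 fibroblast markers in each medium, where 5.89% and 5.87% of all genes were lower. The summed level of 10 endothelial markers was 42.8 to 54.9 TPM at Day 16, above all Day 30 libraries (14.2 to 32.9 TPM in RPMI/B27, 16.6 to 25.6 TPM in RPMI_glcM/B27 and 19.4 to 31.3 TPM in HPLM/B27), with VWF at 0 in the first 3 of these groups. That of 5 markers of undifferentiated cells was 48.03 to 64.5 TPM at Day 16, 7.86 to 16.0 TPM in Day 30 RPMI/B27, 13.7 to 19.0 TPM in RPMI_glcM/B27 and 22.0 to 29.5 TPM in HPLM/B27, so that Day 16 lay above all others and HPLM/B27 above the other media, with POU5F1 at 0 in all groups but HPLM/B27 and NANOG at 0 at Day 16 and in HPLM/B27. The part of these cells in the results below was not tested.

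The promoter windows of 5 members are printed. MPC1, IDH3A and GOT1 rose in both 5 mM glucose media on TPM as deposited. The complex II genes SDHB and SDHD are printed for the short motifs that their windows hold. Both rose in these media after rescaling, as did SDHA, whose window held no such motif and is not printed. On TPM SDHB was called in HPLM/B27 alone and SDHD in no comparison. The windows run from 250 bases before to 50 bases after the start and are RefSeq sequences of GRCh38.p14, in which 31 of the 33 members had an entry. Capitals mark AAGGTCA, the core recognised by oestrogen-related receptors (ERR), and GCATGCG, the core recognised by NRF1, searched on both strands.
SDHB, chr1:17053983-17054282, minus strand: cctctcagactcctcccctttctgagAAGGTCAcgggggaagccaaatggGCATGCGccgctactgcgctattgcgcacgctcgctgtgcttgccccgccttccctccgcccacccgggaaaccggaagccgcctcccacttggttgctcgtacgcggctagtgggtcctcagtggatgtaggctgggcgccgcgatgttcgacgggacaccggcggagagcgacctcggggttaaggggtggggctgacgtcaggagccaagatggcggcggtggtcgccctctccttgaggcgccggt
SDHD, chr11:112086623-112086922, plus strand: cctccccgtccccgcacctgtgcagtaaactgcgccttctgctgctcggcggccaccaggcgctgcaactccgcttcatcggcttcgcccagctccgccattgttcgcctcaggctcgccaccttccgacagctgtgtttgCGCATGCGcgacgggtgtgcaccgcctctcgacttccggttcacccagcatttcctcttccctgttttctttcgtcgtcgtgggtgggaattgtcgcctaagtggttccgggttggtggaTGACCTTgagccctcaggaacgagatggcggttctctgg
MPC1, chr6:166382891-166383190, minus strand: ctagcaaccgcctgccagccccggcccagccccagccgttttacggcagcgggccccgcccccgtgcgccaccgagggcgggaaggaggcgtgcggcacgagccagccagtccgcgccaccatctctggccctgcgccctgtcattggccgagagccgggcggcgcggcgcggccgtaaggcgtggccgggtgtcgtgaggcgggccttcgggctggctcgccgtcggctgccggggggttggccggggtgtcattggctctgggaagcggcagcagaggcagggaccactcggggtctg
IDH3A, chr15:78149112-78149411, plus strand: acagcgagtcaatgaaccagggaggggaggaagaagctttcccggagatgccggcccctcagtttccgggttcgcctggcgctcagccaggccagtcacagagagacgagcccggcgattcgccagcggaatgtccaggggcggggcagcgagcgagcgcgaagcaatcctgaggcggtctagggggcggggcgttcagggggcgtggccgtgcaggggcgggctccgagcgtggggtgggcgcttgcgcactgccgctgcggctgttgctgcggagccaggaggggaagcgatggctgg
GOT1, chr10:99430575-99430874, minus strand: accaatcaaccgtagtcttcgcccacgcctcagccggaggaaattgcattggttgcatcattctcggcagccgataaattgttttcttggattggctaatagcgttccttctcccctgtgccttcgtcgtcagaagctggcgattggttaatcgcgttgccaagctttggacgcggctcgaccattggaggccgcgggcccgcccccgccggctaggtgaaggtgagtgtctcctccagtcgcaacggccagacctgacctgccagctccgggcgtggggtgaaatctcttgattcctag
The ERR core was in 3.97% and the NRF1 core in 4.13% of the 27305 promoters of the same length. Of the 31 members, 3 held the ERR core (SUCLA2, SDHB and SDHD) and 2 held the NRF1 core (SDHB and SDHD). In SDHB the ERR core lay 224 bases and the NRF1 core 200 bases before the start. In SDHD the NRF1 core was read on both strands in overlapping letters 109 and 108 bases before the start, and the ERR core lay 11 bases after it, on the other strand. The E-box CACGTG, in 7.43% of promoters, was in PDHB and ME3. The windows of MPC1, IDH3A and GOT1 held none of these letters. These matches describe the windows and were not tested as binding sites.

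Per unit of gene length, the members spanned from MDH1, the cytosolic malate dehydrogenase, at a mean of 416 TPM over all libraries, and IDH2, the mitochondrial NADP-dependent isocitrate dehydrogenase, at 388 TPM, down to PC at 1.57 TPM and ME3, a mitochondrial malic enzyme, at 1.33 TPM. PC was represented by 18 to 68 reads per library and ME3 by 26 to 64, so small differences in these genes were not detectable at this depth. Summed over the 33 genes, the level was 2865 ± 240.1 TPM at Day 16, 2119 ± 403 TPM in Day 30 RPMI/B27, 2458 ± 153 TPM in RPMI_glcM/B27 and 2722 ± 156 TPM in HPLM/B27 (mean ± SD, n = 4). The libraries of Day 30 RPMI/B27 spread most, from 1583 to 2445 TPM.

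**Figure D1:**
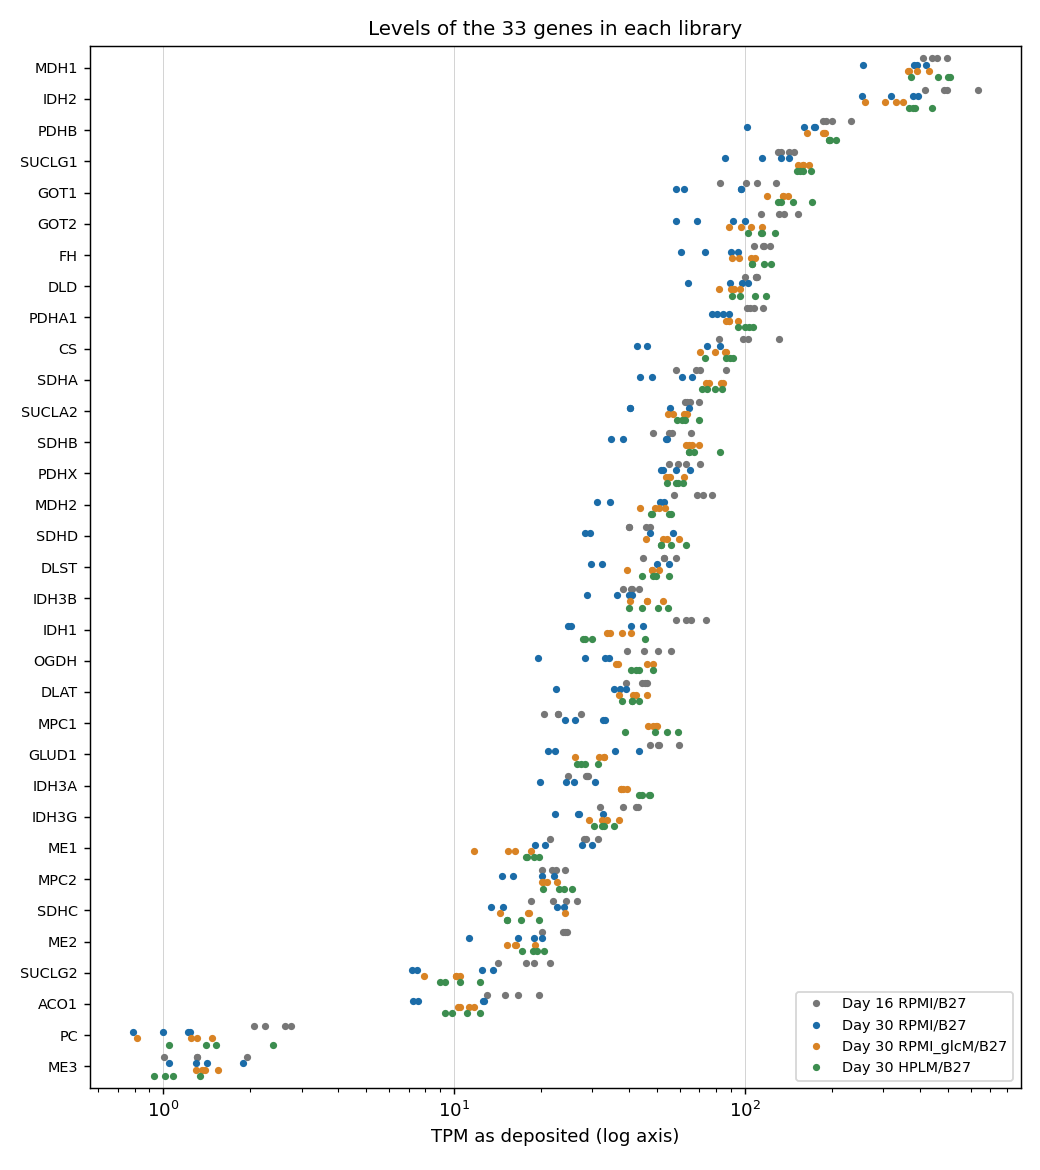
TPM as deposited of each of the 33 genes (rows, ordered by mean level) in each library, on a log axis, with the groups in colours. MDH1 and IDH2 lie at the top and PC and ME3, near 1 TPM, at the bottom.

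The comparison of RPMI_glcM/B27 with Day 30 RPMI/B27 asks what the lower glucose does alone. On TPM as deposited, MPC1, IDH3A and GOT1 rose, 3 of 33 where 1.36% of all genes tested rose, and no member fell, where 0.837% of all genes fell. After rescaling 11 of 33 rose, where 6.17% of all genes rose, and 1 fell, where 5.89% fell. The risers were MPC1, CS, IDH3A, OGDH, SUCLG1, SDHA, SDHB, SDHD, FH, GOT1 and GOT2, and ME1 fell. The median log2 fold change of the members was 0.25 on TPM and 0.17 rescaled, against 0.05 and -0.01 over all genes tested, and 29 and 24 members lay above 0. At an unadjusted p under 0.05, 14 members were higher and 1 lower on TPM, where 9.10% of all genes were higher and 5.84% lower.

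In HPLM/B27 against Day 30 RPMI/B27, where both glucose and the other nutrients differ, MPC1, IDH3A, GOT1, SDHB and FH rose on TPM, 5 of 33 where 1.51% of all genes tested rose, and no member fell, where 0.893% fell. After rescaling 16 of 33 rose, where 7.05% of all genes rose, and 1 fell, where 5.87% fell. PDHB, MPC2, DLST, SUCLA2 and MDH2 joined the 11 that rose in RPMI_glcM/B27, and ME1 again fell. The members' median was 0.31 on TPM and 0.32 rescaled, against -0.02 and -0.01 over all genes, with 28 members above 0 on both scales. Both comparisons share the Day 30 RPMI/B27 libraries, so the calls are not independent of each other.

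**Figure D2:**
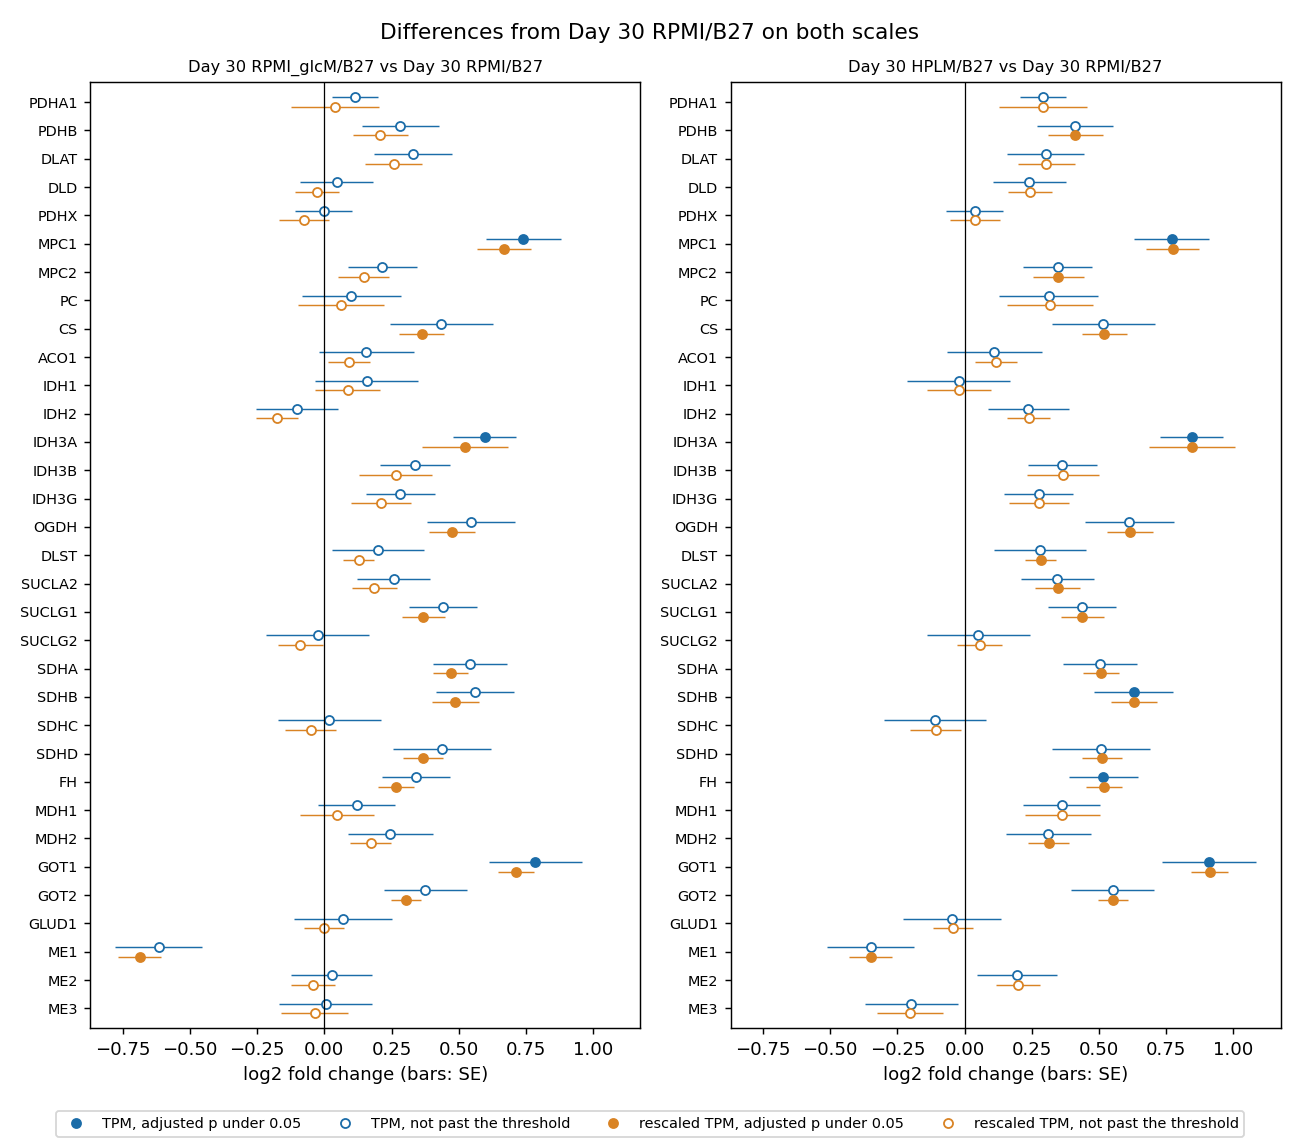
Log2 fold change (x axis, bars show the SE) of each member in RPMI_glcM/B27 and in HPLM/B27 against Day 30 RPMI/B27, on TPM as deposited (blue) and rescaled (orange), with filled points where the adjusted p was under 0.05. Most points lie right of 0 in both panels, GOT1, IDH3A and MPC1 farthest, and ME1 lies left.

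These calls were repeated without the low-factor libraries. On TPM, RPMI_glcM/B27 then had 2 members higher, MPC1 and IDH3A, where 1.04% of all genes were higher, and 1 lower, ME1 (log2 fold change -0.87), where 9.31% were lower. HPLM/B27 had 5 higher, MPC1, IDH3A, GOT1, FH and PDHA1, where 1.53% of all genes were higher, and 2 lower, ME1 (-0.61) and GLUD1 (-0.46), where 19.4% were lower. After rescaling, RPMI_glcM/B27 had 10 higher, where 4.87% of all genes were higher, and 1 lower, ME1, where 4.27% were lower. HPLM/B27 had 23 higher, where 6.77% of all genes were higher, and 0 lower, where 5.58% were lower. In limma fits of only the groups compared, on TPM, no member was higher in RPMI_glcM/B27, where 0.155% of all genes were higher, and IDH3A alone was higher in HPLM/B27, where 0.385% of all genes were higher. The 3 calls in RPMI_glcM/B27 and the calls of MPC1, GOT1, SDHB and FH in HPLM/B27 were thus lost in these fits. Leaving out single libraries moved the TPM counts as well: in RPMI_glcM/B27 they were 5 without Day 30 RPMI/B27 replicate 1 and 6 without replicate 2, and in HPLM/B27 they were 8 without Day 30 RPMI/B27 replicate 1 and 3 without Day 30 RPMI/B27 replicate 3 or 4 or any HPLM/B27 library. Shares of all genes in the fits without a single library are not given. Their counts show the dependence on single libraries and are not results about the members.

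Against glucose-matched RPMI_glcM/B27, HPLM/B27 had 0 of 33 members called by limma on TPM in either direction, where 0.0496% of all genes tested rose and 0.0186% fell, and 2 members were higher at an unadjusted p under 0.05, where 2.49% of all genes were higher. After rescaling 3 members rose, IDH2 (0.41 ± 0.08 (adjusted p = 0.0169)), GOT2 (0.25 ± 0.05 (adjusted p = 0.0348)) and ME1 (0.34 ± 0.08 (adjusted p = 0.048)), where 0.999% of all genes rose, and 0 fell, where 0.626% fell. limma-voom on the recovered reads called 2, and scaling without mitochondrial, ribosomal RNA and RN7SK genes called 0. The 3 rescaled calls fell to 0 without RPMI_glcM/B27 replicate 3 or 4 and to 1 without RPMI_glcM/B27 replicate 2 or any HPLM/B27 library. Shares of all genes in these alternative fits are not given, and their counts show only the dependence on the processing. The members' median was 0.08 on TPM and 0.15 rescaled, against -0.06 and 0.00 over all genes.

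From Day 16 to Day 30 the direction depended on the medium and on the scale. On TPM the median of all genes tested was itself below 0 in each medium, at -0.29 in HPLM/B27, -0.22 in RPMI_glcM/B27 and -0.28 in RPMI/B27, and between -0.01 and 0.01 after rescaling. In RPMI/B27, 16 members fell on TPM, where 17.8% of all genes fell, and 0 rose, where 2.08% rose, and no member was higher at an unadjusted p under 0.05, where 3.62% of all genes were higher. The members' median was -0.40. After rescaling 11 fell, where 8.91% of all genes fell, and 1, MPC1, rose, where 8.62% rose, and the members' median was -0.07. In RPMI_glcM/B27, 9 fell and 2 rose on TPM, where 17.8% of all genes fell and 3.34% rose. After rescaling 7 fell and 8 rose, where 14.2% fell and 13.4% rose. In HPLM/B27, 5 fell and 2 rose on TPM, where 22.4% of all genes fell and 3.00% rose. After rescaling 4 fell and 14 rose, where 12.5% fell and 12.9% rose. The members' median in HPLM/B27 was -0.08 on TPM and 0.25 rescaled. Many calls in RPMI/B27 rested on the low-factor libraries. Without them 4 members in place of 16 were lower on TPM, PDHA1, IDH1, FH and GOT2, where 5.33% of all genes were lower, and MPC1 was higher, where 4.33% were higher. After rescaling 10 were then lower (PC, CS, IDH1, IDH2, OGDH, SUCLG2, FH, MDH2, GOT2 and GLUD1), where 7.41% of all genes were lower, and MPC1 and SDHD were higher, where 7.59% were higher. The fit of only Day 30 RPMI/B27 and Day 16 on TPM called 2 lower, IDH1 and GOT2, where 5.20% of all genes were lower. With the low-factor libraries left out of the shared fit, 14 were lower and 5 higher in RPMI_glcM/B27 on TPM, where 29.0% of all genes were lower and 5.12% higher. In HPLM/B27 9 were lower and 6 higher, where 36.2% were lower and 4.58% higher. The number called in RPMI_glcM/B27 was 7 without Day 16 replicate 2 or 3 or RPMI_glcM/B27 replicate 2, fits for which the share of all genes is not given.

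The pyruvate carrier showed the change most plainly in MPC1, which together with MPC2 forms the carrier. MPC1 was at 22.9, 27.4, 22.8 and 20.4 TPM at Day 16, 32.7, 33.1, 26.1 and 24.1 TPM in Day 30 RPMI/B27, 46.5, 49.9, 49.8 and 48.5 TPM in Day 30 RPMI_glcM/B27, and 38.9, 54.1, 58.9 and 49.4 TPM in Day 30 HPLM/B27. The libraries of both 5 mM glucose media lay above all Day 16 and Day 30 RPMI/B27 libraries, and on TPM those of Day 30 RPMI/B27 overlapped Day 16. The log2 fold change against Day 30 RPMI/B27 was 0.74 ± 0.14 (adjusted p = 0.0106) in RPMI_glcM/B27 and 0.77 ± 0.14 (adjusted p = 0.00697) in HPLM/B27, and both calls held in each of 8 fits without a single library and without the low-factor libraries (0.55 and 0.58). In limma fits of only the groups compared neither passed on TPM (adjusted p = 0.0767 and 0.112). Against Day 16 MPC1 rose, at 1.03 ± 0.14 (adjusted p = 9.45e-05) in RPMI_glcM/B27 and 1.07 ± 0.14 (adjusted p = 7.17e-05) in HPLM/B27. In RPMI/B27 the difference from Day 16 was 0.29 ± 0.14 (adjusted p = 0.14) on TPM and passed after rescaling at 0.62 ± 0.10 (adjusted p = 0.000509), and on TPM without the low-factor libraries at 0.48. MPC2 was between 14.6 and 25.5 TPM in all libraries and was called only after rescaling, in HPLM/B27 against both RPMI/B27 groups (0.38 against Day 16 and 0.35 against Day 30).

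The pyruvate dehydrogenase complex moved less. PDHB, a subunit of its decarboxylase, was at 202 ± 20.6 TPM at Day 16, 152 ± 34.4 TPM in Day 30 RPMI/B27, 182 ± 12.2 TPM in RPMI_glcM/B27 and 198 ± 5.87 TPM in HPLM/B27. It fell from Day 16 in RPMI/B27 on TPM (-0.43 ± 0.14 (adjusted p = 0.044)) and was higher in HPLM/B27 than in Day 30 RPMI/B27 after rescaling (0.41 ± 0.10 (adjusted p = 0.0167)). PDHA1, the other decarboxylase subunit, fell from Day 16 in RPMI/B27 (-0.37 ± 0.09 (adjusted p = 0.00751)) and in RPMI_glcM/B27 (-0.26 ± 0.09 (adjusted p = 0.0413)) on TPM, but after rescaling these values were -0.04 and 0.00 and not called. DLAT, the acetyltransferase core, was called in no comparison on either scale. DLD, the lipoamide dehydrogenase shared with the oxoglutarate complex, was higher in HPLM/B27 than at Day 16 after rescaling (0.28). PDHX, which ties DLD to the core, was at 62.9, 70.5, 59.1 and 55.2 TPM at Day 16, 64.8, 58.3, 52.4 and 51.8 TPM in Day 30 RPMI/B27, 55.5, 62.1, 53.8 and 54.8 TPM in Day 30 RPMI_glcM/B27, and 54.2, 61.5, 59.0 and 58.1 TPM in Day 30 HPLM/B27. Its groups overlapped on TPM and it was called in no comparison on either scale. PC was lower than at Day 16 in RPMI/B27 (-0.73 ± 0.18 (adjusted p = 0.0123)) and RPMI_glcM/B27 (-0.63 ± 0.18 (adjusted p = 0.0218)) at the low read numbers given above. After rescaling PC was at -0.51 and -0.45, both called, and PDHB at -0.10 in RPMI/B27, not called. The falls in RPMI/B27 on TPM without the low-factor libraries were -0.40 for PDHA1, still called, and -0.21 for PDHB and -0.69 for PC, neither called.

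Among the enzymes from citrate to succinyl-CoA, IDH3A, the catalytic subunit of the NAD-dependent isocitrate dehydrogenase, changed most between media. IDH3A was at 28.5, 24.6, 28.7 and 28.9 TPM at Day 16, 25.9, 24.3, 30.7 and 19.8 TPM in Day 30 RPMI/B27, 37.6, 37.5, 38.1 and 39.3 TPM in Day 30 RPMI_glcM/B27, and 43.2, 44.2, 47.4 and 47.0 TPM in Day 30 HPLM/B27. On TPM every library of RPMI_glcM/B27 lay above every RPMI/B27 library, and every HPLM/B27 library lay above those of RPMI_glcM/B27. After rescaling RPMI_glcM/B27 (35.5 to 44.7) overlapped Day 30 RPMI/B27 (highest 38.9) and HPLM/B27 (lowest 43.8). Against Day 30 RPMI/B27 it rose, at 0.60 ± 0.12 (adjusted p = 0.0129) in RPMI_glcM/B27 and 0.84 ± 0.12 (adjusted p = 0.000819) in HPLM/B27. In limma fits of only the groups compared, the call in RPMI_glcM/B27 was lost (adjusted p = 0.177) and that in HPLM/B27 held (adjusted p = 0.0494). The difference between HPLM/B27 and RPMI_glcM/B27, 0.25 ± 0.12 (adjusted p = 0.761), did not pass. After rescaling the call in RPMI_glcM/B27 (0.52 ± 0.16 (adjusted p = 0.0453)) held in 1 of 8 fits without a single library. The other subunits of the enzyme did not pass between media on either scale: IDH3B was at 0.34 and 0.36, and IDH3G at 0.28 and 0.28, in RPMI_glcM/B27 and HPLM/B27. IDH3G fell from Day 16 in RPMI/B27 on TPM (-0.50) but not after rescaling (-0.18) or without the low-factor libraries (-0.37), and IDH3B rose from Day 16 in both 5 mM glucose media after rescaling (0.43 and 0.53).

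CS, citrate synthase, fell from Day 16 in RPMI/B27 (-0.78 ± 0.19 (adjusted p = 0.011)), from 104 ± 20.8 TPM to 61.4 ± 20.1 TPM. Against Day 30 RPMI/B27 it was higher after rescaling in RPMI_glcM/B27 (0.36 ± 0.08 (adjusted p = 0.0116)) and HPLM/B27 (0.52 ± 0.08 (adjusted p = 0.000973)), with 0.44 and 0.52 and no call on TPM. OGDH, the decarboxylase of the oxoglutarate complex, had the same calls with all libraries: it fell from Day 16 in RPMI/B27 (-0.73 ± 0.16 (adjusted p = 0.00666)) and was higher after rescaling in both 5 mM glucose media (0.47 and 0.62). DLST, the succinyltransferase of that complex, was higher in HPLM/B27 after rescaling (0.28 against Day 30 RPMI/B27). ACO1, the cytosolic aconitase that also serves as an iron sensor, was lower than at Day 16 in all 3 media after rescaling (-0.35, -0.26 and -0.23) and in RPMI/B27 and HPLM/B27 on TPM (-0.66 and -0.55). The falls from Day 16 in RPMI/B27 were smaller after rescaling, at -0.45 for CS and -0.40 for OGDH, both called. On TPM without the low-factor libraries they were -0.38 for CS, -0.48 for OGDH and -0.31 for ACO1, none called, and after rescaling without them CS (-0.35) and OGDH (-0.45) were called and ACO1 (-0.28) was not. CS in RPMI_glcM/B27 against Day 30 RPMI/B27 was then at 0.26 after rescaling and not called.

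Of the NADP-dependent isocitrate dehydrogenases, IDH1 fell from Day 16 in all 3 media and IDH2 in RPMI/B27 and RPMI_glcM/B27. IDH1, the cytosolic enzyme, was at 73.5, 58.1, 65.3 and 62.7 TPM at Day 16, 40.6, 44.8, 25.4 and 24.7 TPM in Day 30 RPMI/B27, 37.8, 40.7, 34.6 and 33.8 TPM in Day 30 RPMI_glcM/B27, and 27.9, 45.5, 29.9 and 28.3 TPM in Day 30 HPLM/B27. On TPM all Day 30 libraries lay below all Day 16 libraries. After rescaling HPLM/B27 (highest 45.1) overlapped Day 16 (lowest 44.1). The log2 fold change of IDH1 was -0.96 ± 0.19 (adjusted p = 0.00306) in RPMI/B27, -0.80 ± 0.19 (adjusted p = 0.00684) in RPMI_glcM/B27 and -0.98 ± 0.19 (adjusted p = 0.00173) in HPLM/B27. It was called in all 3 media on both scales and in each fit without a single library. In RPMI/B27 without the low-factor libraries it was at -0.59 and called. IDH2 was at 498, 636, 484 and 417 TPM at Day 16, 396, 379, 319.9 and 254 TPM in Day 30 RPMI/B27, 351, 333, 304 and 259 TPM in Day 30 RPMI_glcM/B27, and 379, 439.7, 368 and 384 TPM in Day 30 HPLM/B27. Its log2 fold change from Day 16 was -0.60 ± 0.15 (adjusted p = 0.0129) in RPMI/B27, -0.70 ± 0.15 (adjusted p = 0.00377) in RPMI_glcM/B27 and -0.36 ± 0.15 (adjusted p = 0.0889) in HPLM/B27, where the libraries overlapped those of Day 16. After rescaling the values of IDH2 were -0.26, -0.44 and -0.02 in the same order, the first 2 called, and the call in RPMI/B27 held in 2 of 8 rescaled fits without a single library. On TPM without the low-factor libraries IDH2 was at -0.38 in RPMI/B27 and not called, and after rescaling it was at -0.35 and called.

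**Figure D3:**
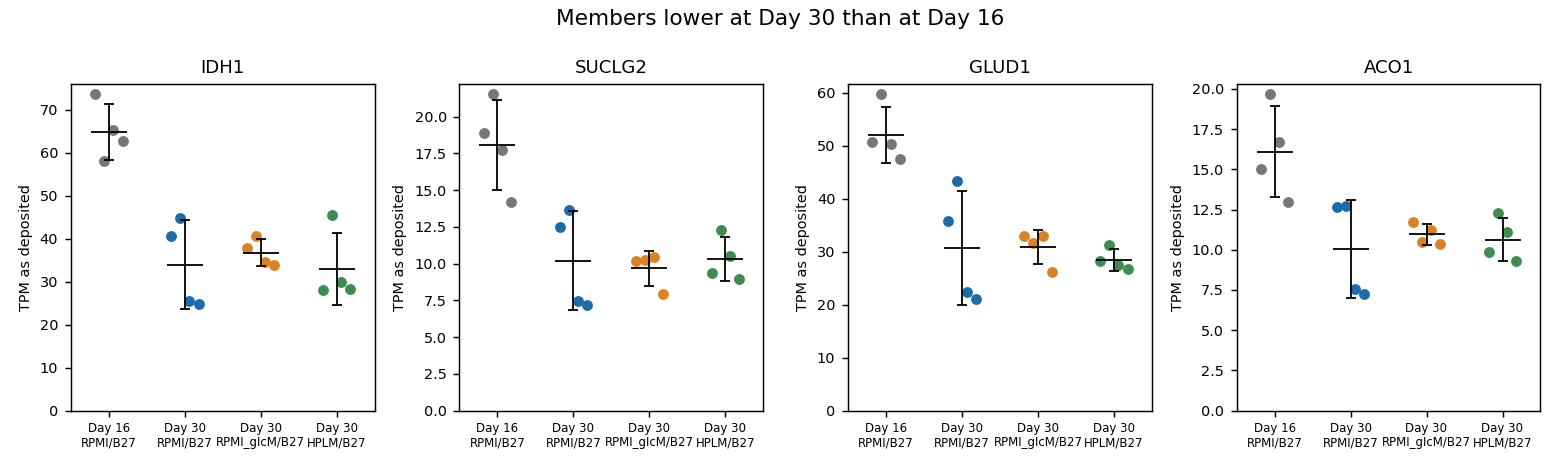
TPM as deposited of IDH1, SUCLG2, GLUD1 and ACO1 in each library, with bars at the group mean and SD (n = 4). The Day 16 libraries lie above all Day 30 libraries in each of the 4 panels.

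SUCLG2, the subunit that makes succinyl-CoA ligase GDP-forming, and GLUD1, which feeds glutamate into the cycle as oxoglutarate, shared this pattern. SUCLG2 was at 18.9, 21.5, 17.7 and 14.2 TPM at Day 16, 12.5, 13.7, 7.49 and 7.19 TPM in Day 30 RPMI/B27, 10.2, 10.2, 10.5 and 7.91 TPM in Day 30 RPMI_glcM/B27, and 9.37, 12.3, 10.5 and 8.96 TPM in Day 30 HPLM/B27. GLUD1 was at 50.7, 59.7, 50.4 and 47.4 TPM at Day 16, 35.9, 43.3, 22.3 and 21.1 TPM in Day 30 RPMI/B27, 32.9, 31.6, 32.9 and 26.2 TPM in Day 30 RPMI_glcM/B27, and 28.3, 31.3, 27.4 and 26.7 TPM in Day 30 HPLM/B27. For both, all Day 30 libraries lay below Day 16. The log2 fold change of SUCLG2 was -0.80 ± 0.19 (adjusted p = 0.00909) in RPMI/B27, -0.83 ± 0.19 (adjusted p = 0.00566) in RPMI_glcM/B27 and -0.75 ± 0.19 (adjusted p = 0.00962) in HPLM/B27. That of GLUD1 was -0.80 ± 0.18 (adjusted p = 0.00693), -0.73 ± 0.18 (adjusted p = 0.00915) and -0.85 ± 0.18 (adjusted p = 0.00345) in the same order. IDH1, SUCLG2 and GLUD1 were the members called lower than Day 16 in all 3 media on TPM. Of all genes tested, 17.8%, 17.8% and 22.4% were lower in the single media, in the same order. The share of all genes lower in all 3 media at once is not given. Whether these members stand out from other genes in this respect was therefore not tested. After rescaling SUCLG2 was at -0.49, -0.58 and -0.43 and GLUD1 at -0.48, -0.48 and -0.52, all called. In RPMI/B27 without the low-factor libraries they were at -0.43 and -0.39 on TPM, neither called, and at -0.40 and -0.36 after rescaling, both called. None of these 3 was called between Day 30 media on either scale with all libraries. Marker sums of hepatic endoderm, fibroblasts, endothelium and undifferentiated cells also had lower ranges at Day 30 than at Day 16, as given above, and their part in these falls was not tested.

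SUCLA2, the ADP-forming counterpart of SUCLG2, fell from Day 16 in RPMI/B27 on TPM (-0.40 ± 0.14 (adjusted p = 0.0482)) and was higher in HPLM/B27 after rescaling (0.35 against Day 30 RPMI/B27). The fall was not called after rescaling (-0.07) or without the low-factor libraries (-0.12). SUCLG1, the subunit both forms share, was higher after rescaling in RPMI_glcM/B27 (0.37 ± 0.08 (adjusted p = 0.00905)) and HPLM/B27 (0.44 ± 0.08 (adjusted p = 0.00264)) than in Day 30 RPMI/B27, and higher than at Day 16 in both. On TPM these differences were 0.44 and 0.44 with no overlap of the libraries and adjusted p of 0.0846 and 0.087.

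SDHA, SDHB and SDHD of complex II were higher in both 5 mM glucose media after rescaling, and SDHC was not called. SDHB, the iron-sulphur subunit, was at 48.6, 65.6, 54.8 and 56.2 TPM at Day 16, 53.6, 54.3, 38.1 and 34.8 TPM in Day 30 RPMI/B27, 63.1, 66.0, 69.8 and 64.7 TPM in Day 30 RPMI_glcM/B27, and 66.9, 82.4, 64.3 and 64.4 TPM in Day 30 HPLM/B27. All libraries of both 5 mM glucose media lay above those of Day 30 RPMI/B27. SDHB rose, at 0.63 ± 0.15 (adjusted p = 0.0313) in HPLM/B27, and its difference in RPMI_glcM/B27 was 0.56 ± 0.15 (adjusted p = 0.0555). The call in HPLM/B27 held in 2 of 8 fits without a single library (highest adjusted p = 0.112) on TPM and in 8 of 8 after rescaling. Without the low-factor libraries it was at 0.35 on TPM, not called, and 0.66 after rescaling, called. SDHA, the flavoprotein subunit, was at 0.54 ± 0.14 (adjusted p = 0.0513) in RPMI_glcM/B27 and 0.50 ± 0.14 (adjusted p = 0.0684) in HPLM/B27 on TPM and passed in both after rescaling (0.47 and 0.51). SDHD, a membrane anchor, likewise passed only after rescaling (0.37 and 0.51), and its rescaled call in RPMI_glcM/B27 was lost without the low-factor libraries (0.26). SDHC, the other membrane anchor, was at 22.0, 24.3, 26.6 and 18.4 TPM at Day 16, 22.7, 23.9, 14.8 and 13.4 TPM in Day 30 RPMI/B27, 24.1, 18.0, 18.2 and 14.4 TPM in Day 30 RPMI_glcM/B27, and 15.2, 19.7, 17.1 and 15.2 TPM in Day 30 HPLM/B27. Its groups overlapped, and its values of 0.02 and -0.11 on TPM and -0.05 and -0.11 rescaled did not pass.

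FH, fumarase, was at 116, 116, 122 and 108 TPM at Day 16, 90.0, 95.02, 73.3 and 60.6 TPM in Day 30 RPMI/B27, 105, 109, 95.6 and 90.4 TPM in Day 30 RPMI_glcM/B27, and 106, 117, 123 and 106 TPM in Day 30 HPLM/B27. In HPLM/B27 it was above every Day 30 RPMI/B27 library. FH rose, at 0.52 ± 0.13 (adjusted p = 0.0419) against Day 30 RPMI/B27, a call that held in 2 of 8 fits without a single library on TPM (highest adjusted p = 0.146) and 8 of 8 after rescaling. Without the low-factor libraries it was at 0.28 on TPM and called, and in the fit of only the groups compared its limma adjusted p was 0.256. It had fallen from Day 16 in RPMI/B27 (-0.55 ± 0.13 (adjusted p = 0.0076)). This fall was -0.22 after rescaling, where the call held in 2 of 8 fits without a single library, and -0.32 on TPM without the low-factor libraries, where it was called. MDH2, the mitochondrial malate dehydrogenase, fell from Day 16 in RPMI/B27 (-0.71 ± 0.16 (adjusted p = 0.00582)) and RPMI_glcM/B27 (-0.47 ± 0.16 (adjusted p = 0.0445)) on TPM and was higher in HPLM/B27 than in Day 30 RPMI/B27 after rescaling (0.31). After rescaling its falls were -0.38 in RPMI/B27, called, and -0.21 in RPMI_glcM/B27, not called, and without the low-factor libraries that in RPMI/B27 was -0.39 on TPM, not called, and -0.36 rescaled, called.

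**Figure D4:**
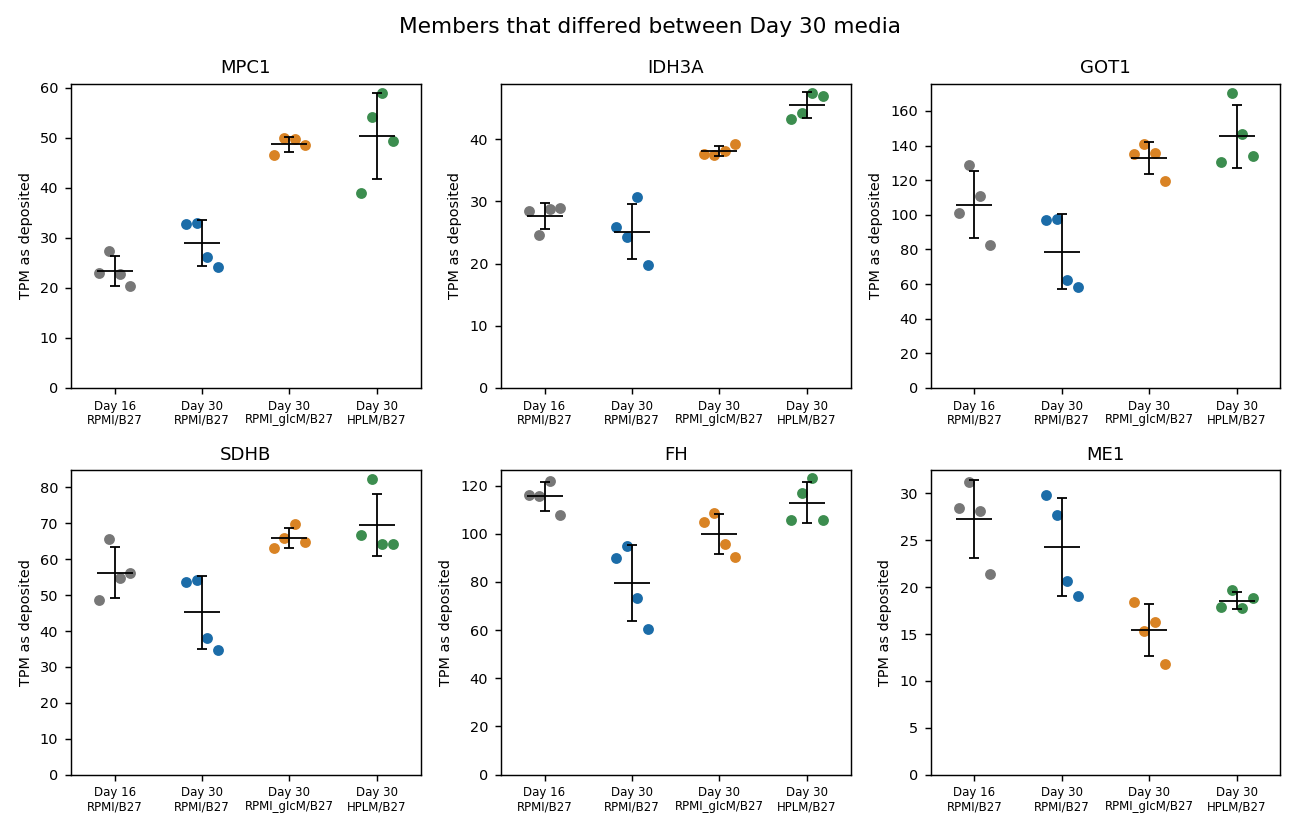
TPM as deposited of MPC1, IDH3A, GOT1, SDHB, FH and ME1 in each library, with bars at the group mean and SD (n = 4). MPC1, IDH3A, GOT1 and SDHB are higher in RPMI_glcM/B27 and HPLM/B27 than in every Day 30 RPMI/B27 library, and ME1 is lowest in RPMI_glcM/B27.

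In the malate-aspartate shuttle, GOT1, the cytosolic aspartate aminotransferase, had, with all libraries, the largest log2 fold change between HPLM/B27 and Day 30 RPMI/B27 of the 33 genes. GOT1 was at 101, 129, 111 and 82.4 TPM at Day 16, 97.2, 97.5, 62.1 and 58.2 TPM in Day 30 RPMI/B27, 135, 141, 135 and 119.6 TPM in Day 30 RPMI_glcM/B27, and 130.3, 170.1, 147 and 134 TPM in Day 30 HPLM/B27. All libraries of both 5 mM glucose media lay above those of Day 30 RPMI/B27, and on TPM those of RPMI_glcM/B27 overlapped Day 16. GOT1 rose, at 0.78 ± 0.17 (adjusted p = 0.0253) in RPMI_glcM/B27 and 0.91 ± 0.17 (adjusted p = 0.00945) in HPLM/B27. The call in HPLM/B27 held in each of 8 fits without a single library, and that in RPMI_glcM/B27 in 3 of 8 (highest adjusted p = 0.0824). Without the low-factor libraries GOT1 was at 0.44 in RPMI_glcM/B27, not called, and 0.57 in HPLM/B27, called. Neither passed in limma fits of only the groups compared (adjusted p = 0.153 and 0.095). After rescaling it was 0.71 ± 0.07 (adjusted p = 3e-05) and 0.91 ± 0.07 (adjusted p = 1.93e-06). GOT2, the mitochondrial enzyme, fell from Day 16 in RPMI/B27 (-0.77 ± 0.15 (adjusted p = 0.00329)) and was higher in both 5 mM glucose media after rescaling (0.30 and 0.55). Its fall was -0.43 after rescaling and -0.47 on TPM without the low-factor libraries, called in both. MDH1, at 363 ± 72.9 TPM in Day 30 RPMI/B27 and 462 ± 62.5 TPM in HPLM/B27, was called in no comparison on either scale.

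Of the malic enzymes, which turn malate into pyruvate, ME1, the cytosolic NADPH-producing form, was, with all libraries, the only member called lower in the 5 mM glucose media than in Day 30 RPMI/B27. ME1 was at 28.4, 31.2, 28.2 and 21.4 TPM at Day 16, 29.8, 27.7, 20.6 and 19.1 TPM in Day 30 RPMI/B27, 18.4, 15.3, 16.3 and 11.8 TPM in Day 30 RPMI_glcM/B27, and 17.9, 19.7, 17.8 and 18.9 TPM in Day 30 HPLM/B27. The RPMI_glcM/B27 libraries lay below all RPMI/B27 libraries of both days, and on TPM HPLM/B27 overlapped Day 30 RPMI/B27. Against Day 30 RPMI/B27 the difference was -0.61 ± 0.16 (adjusted p = 0.0579) in RPMI_glcM/B27 and -0.35 ± 0.16 (adjusted p = 0.317) in HPLM/B27 on TPM, neither past the threshold. After rescaling it fell in both, at -0.69 ± 0.08 (adjusted p = 0.000113) and -0.35 ± 0.08 (adjusted p = 0.00973). Without the low-factor libraries both differences passed on TPM, as given above, and after rescaling that in RPMI_glcM/B27 did (-0.64) and that in HPLM/B27 did not (-0.30). From Day 16 it fell on TPM in RPMI_glcM/B27 (-0.79 ± 0.16 (adjusted p = 0.00272)) and HPLM/B27 (-0.52 ± 0.16 (adjusted p = 0.0271)), and after rescaling it was at -0.54, called, and -0.20, not called. ME2, the mitochondrial NAD-dependent form, fell from Day 16 on TPM in RPMI/B27 (-0.47) and RPMI_glcM/B27 (-0.45). Neither was called after rescaling (-0.15 and -0.19), and that in RPMI/B27 was not called without the low-factor libraries (-0.23). ME3 was at 1.31, 1.95, 1.31 and 1.01 TPM at Day 16, 1.30, 1.88, 1.42 and 1.05 TPM in Day 30 RPMI/B27, 1.40, 1.36, 1.55 and 1.30 TPM in Day 30 RPMI_glcM/B27, and 0.934, 1.34, 1.08 and 1.01 TPM in Day 30 HPLM/B27. These values overlapped between all groups, and ME3 was called in no comparison on either scale.

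Ratios of paired genes within a library do not depend on its scale factor. Of 36 exact permutation tests (6 ratios, 6 comparisons, two-sided, 4 libraries against 4), 18 reached a p of 0.0286, the smallest these group sizes allow, and none passed after adjustment over the 36 (lowest adjusted p = 0.0571). MPC1/MPC2 was 1.06 ± 0.107 (mean ± SD, n = 4) at Day 16 and 1.61 ± 0.139 in Day 30 RPMI/B27, against 2.32 ± 0.117 with RPMI_glcM/B27 and 2.19 ± 0.417 with HPLM/B27. It was higher in all Day 30 libraries than at Day 16, and in all RPMI_glcM/B27 libraries than in Day 30 RPMI/B27. GOT1/GOT2 was 0.786 ± 0.0536, 0.985 ± 0.0674, 1.31 ± 0.0932 and 1.27 ± 0.0855 in the same order of groups, with no overlap in any comparison but that between the 5 mM glucose media.

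ME1/ME2 was 1.17 ± 0.0962 at Day 16 and 1.47 ± 0.186 in Day 30 RPMI/B27, and 0.918 ± 0.1004 and 0.983 ± 0.0445 in RPMI_glcM/B27 and HPLM/B27. Every library of the 5 mM glucose media was below every RPMI/B27 library in this ratio. SUCLA2/SUCLG2 was 3.69 ± 0.647 at Day 16 and 6.16 ± 0.748 and 6.19 ± 0.768 in RPMI_glcM/B27 and HPLM/B27, without overlap, and 5.05 ± 0.551 in Day 30 RPMI/B27. IDH1/IDH2 was lower in HPLM/B27 (0.0736 to 0.104) than in RPMI_glcM/B27 (0.108 to 0.130), the only ratio without overlap between these media. MDH1/MDH2 was 5.97 to 7.23 at Day 16 and 7.39 to 13.6 in Day 30 RPMI/B27, where a single library stood at 13.6. It was 7.39 to 8.44 in RPMI_glcM/B27, also without overlap with Day 16, and 6.66 to 10.7 in HPLM/B27, which overlapped Day 16.

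**Figure D5:**
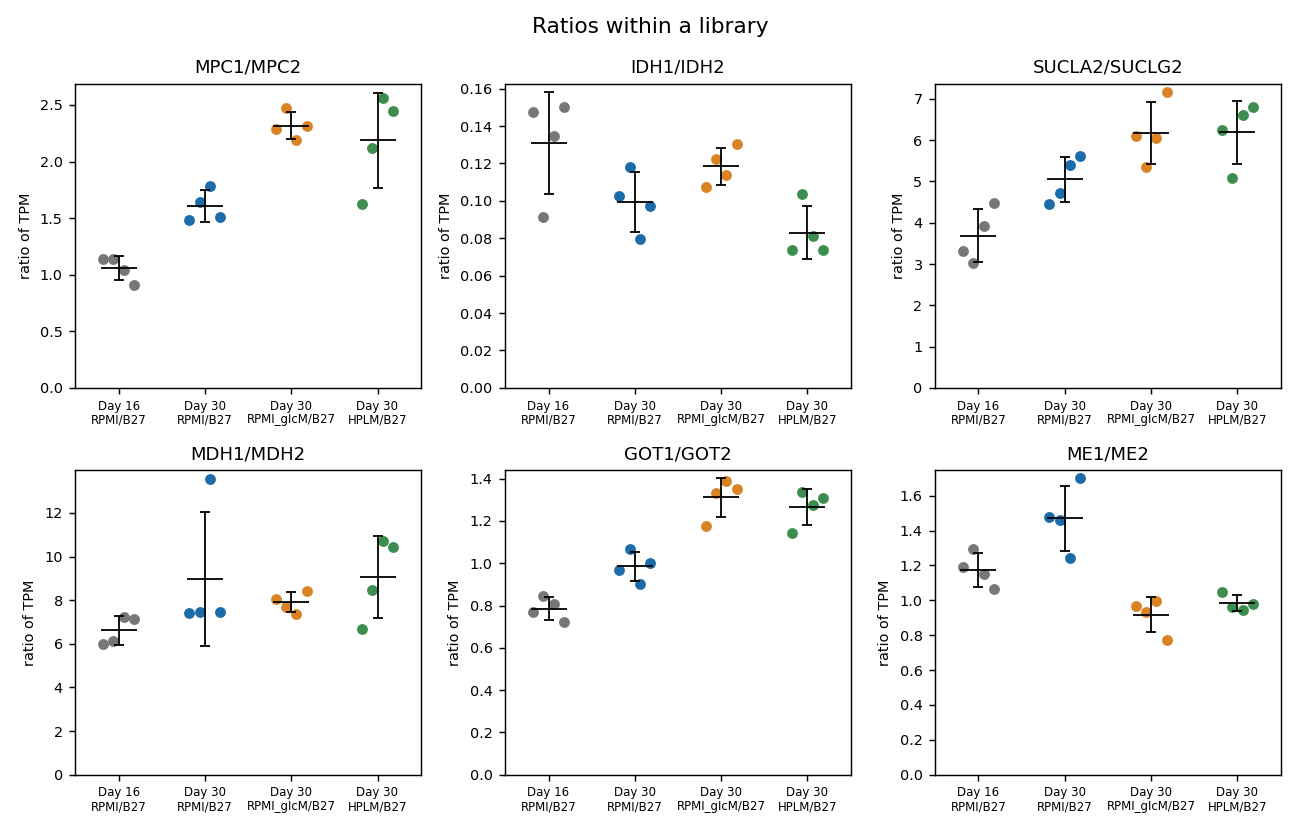
Ratio of the TPM of paired genes within each library, with bars at the group mean and SD (n = 4). MPC1/MPC2 and GOT1/GOT2 are higher in RPMI_glcM/B27 and HPLM/B27 than at Day 16, and ME1/ME2 is lower there than in both RPMI/B27 groups.

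Of 40 further genes of the pathway, 35 were tested. On TPM, 2 were higher in RPMI_glcM/B27 and 4 in HPLM/B27 than in Day 30 RPMI/B27, and none was lower, where 1.36% and 1.51% of all genes were higher and 0.837% and 0.893% lower. After rescaling 8 were higher in RPMI_glcM/B27, where 6.17% of all genes were higher, and none was lower, where 5.89% were. In HPLM/B27 11 were higher and 1 lower, where 7.05% of all genes were higher and 5.87% lower. Both lactate dehydrogenases, which interconvert pyruvate and lactate, were among them. LDHA was at 405 ± 34.9 TPM at Day 16, 318 ± 60.4 TPM in Day 30 RPMI/B27, 602 ± 43.7 TPM in RPMI_glcM/B27 and 534 ± 50.7 TPM in HPLM/B27 (mean ± SD, n = 4). It rose, at 0.93 ± 0.13 (adjusted p = 0.00114) in RPMI_glcM/B27 and 0.76 ± 0.13 (adjusted p = 0.00374) in HPLM/B27 without overlap. LDHB rose in HPLM/B27 (0.53 ± 0.10 (adjusted p = 0.012)), from 447 ± 70.0 TPM to 639.8 ± 21.4 TPM. Without the low-factor libraries LDHA was at 0.70 in RPMI_glcM/B27 and 0.52 in HPLM/B27 and LDHB at 0.35 in HPLM/B27, all called. In limma fits of only the groups compared, LDHA in RPMI_glcM/B27 was called (adjusted p = 0.0434), and LDHA and LDHB in HPLM/B27 were not (adjusted p = 0.0814 and 0.169).

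GLUL, glutamine synthetase, was at 9.41 ± 3.66 TPM in Day 30 RPMI/B27 and 19.1 ± 2.52 TPM in RPMI_glcM/B27, where it rose (1.02 ± 0.25 (adjusted p = 0.0444)). OGDHL, a relative of OGDH, rose in HPLM/B27 (0.72 ± 0.18 (adjusted p = 0.0417)), as did FAHD1, an oxaloacetate decarboxylase (0.62 ± 0.13 (adjusted p = 0.0153)). Without the low-factor libraries FAHD1 was called on TPM (0.59), and GLUL in RPMI_glcM/B27 (0.58) and OGDHL in HPLM/B27 (0.45) were not, and in fits of only the groups compared none of the 3 was called. Of the 6 regulators of pyruvate dehydrogenase tested, its kinases and phosphatases, none passed on TPM between Day 30 media. After rescaling 2 were higher in RPMI_glcM/B27, where 6.17% of all genes were higher than in Day 30 RPMI/B27, and 3 in HPLM/B27, where 7.05% were. None of the 4 complex II assembly factors or the 3 lipoylation genes passed between Day 30 media on either scale. Between HPLM/B27 and RPMI_glcM/B27 none of the 35 passed on TPM, where 0.0496% of all genes were higher and 0.0186% lower. After rescaling 1 of the 35 was higher in HPLM/B27, where 0.999% of all genes were higher.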

How the data were processed

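Strand-specific total RNA libraries (Takara SMARTer) were read by the authors on a NovaSeq6000. Per the labels, alignment used STAR 2.5.3a and hg38 plus decoys, counting used featureCounts 2.0.3, and the authors' own tests used DESeq2 in R 4.1.3. The authors deposited TPM for 43388 genes, which sum to 1000000 in each of the 16 libraries. The annotation and the tool that made the TPM were not given in the sources used here, and the number of per-sample columns not used was 0.

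Here, log2(TPM + 1) was fitted for the 16122 genes whose mean reached 1 TPM in R 4.3.3 by limma 3.58.1 (functions lmFit and eBayes, trend on), with all 4 groups in the fit and no covariate, for 6 comparisons, with Benjamini-Hochberg adjustment over all genes tested in a comparison and a threshold of 0.05. The same fit was run on TPM divided by median-of-ratios factors from 14918 genes. Ratios within a library were tested by exact permutation of libraries, two-sided. Whole reads were recovered from the steps of the TPM for all members. In data simulated for HPLM/B27 against Day 30 RPMI/B27 with 16122 genes, 178 of 200 genes changed by 1.5 on the log2 scale were called, and 9 unchanged genes. The members' own log2 fold changes in this comparison were smaller, at most 0.91 on TPM (GOT1). How often differences of that size would be called was not tested.

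The genes given in every library were those called between Day 30 media on TPM or among the 3 largest or smallest log2 fold changes of the members in any comparison, and other pathway genes were named where called between Day 30 media on TPM. The members, lists, tests and alternatives were chosen with earlier results of these data known. Alternatives were another pseudocount (0.1), no filter or a minimum of 5 TPM, another scaling, fits of only the groups compared, a replicate block, limma-voom on recovered reads, an RNR1 covariate and leaving out libraries; those without Day 30 RPMI/B27 replicates 3 and 4, and those on the rescaled fit, were added after the data had been seen. No pair of libraries held identical values.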

Additional observations from a re-analysis of the deposited data

Results flagged for a closer look

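In 8 of 132 groups of 4 libraries, a gene's highest or lowest library stood apart from the other 3 by Dixon's test at its 95% critical value. Chance gives such a gap in about 1 of 20 groups. Day 30 HPLM/B27 replicate 2 was the highest of its group in PDHB (207 TPM, the others 195 to 196 TPM), IDH1 (45.5 TPM, the others 27.9 to 29.9 TPM) and SDHB (82.4 TPM, the others 64.3 to 66.9 TPM). Day 30 RPMI_glcM/B27 replicate 4 was the lowest in PDHB (163 TPM, the others 187 to 189 TPM) and SUCLG2 (7.91 TPM, the others 10.2 to 10.5 TPM). Day 16 replicate 4 was the lowest in DLD (100.6 TPM, the others 109 to 110.1 TPM) and ME2 (20.2 TPM, the others 23.8 to 24.5 TPM), and Day 16 replicate 2 the lowest in IDH3A (24.6 TPM, the others 28.5 to 28.9 TPM).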

How the results depend on the processing

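Counts of members called on TPM and after median-of-ratios rescaling were 7 and 18 for HPLM/B27 against Day 16, 3 and 12 for RPMI_glcM/B27 against Day 30 RPMI/B27, 5 and 17 for HPLM/B27 against Day 30 RPMI/B27, and 0 and 3 between HPLM/B27 and RPMI_glcM/B27. In the same order limma-voom on recovered reads gave 19, 12, 18 and 2. Scaling without mitochondrial, ribosomal RNA and RN7SK genes gave 12, 10, 18 and 0 for these, and 17 in place of 11 for RPMI_glcM/B27 against Day 16. Fits of only the groups compared gave 2 in place of 16 for RPMI/B27 against Day 16, 14 for HPLM/B27 against Day 16, 0 for RPMI_glcM/B27 and 1 for HPLM/B27 against Day 30 RPMI/B27. An RNR1 covariate gave 4 for RPMI/B27 against Day 16, 7 for RPMI_glcM/B27 and 10 for HPLM/B27 against Day 30 RPMI/B27. A minimum of 5 TPM gave 6 for RPMI_glcM/B27, and no filter gave 3 for HPLM/B27, against Day 30 RPMI/B27. Without Day 30 RPMI/B27 replicates 3 and 4 the counts against Day 16 were 15 in HPLM/B27 (9 lower and 6 higher), 19 in RPMI_glcM/B27 (14 lower and 5 higher) and 5 in RPMI/B27 (4 lower and 1 higher), and between HPLM/B27 and RPMI_glcM/B27 the rescaled count was 5. The cause of these changes was not tested. Counts in these paragraphs pool both directions where no split is given. HPLM/B27 against Day 16 had 2 higher and 5 lower on TPM, and 14 higher and 4 lower after rescaling. Shares of all genes called are not given beside these counts. They describe the dependence on the processing and are not results about the members.

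Without single libraries the TPM counts ranged from 12 to 22 (RPMI/B27), 7 to 11 (RPMI_glcM/B27) and 5 to 9 (HPLM/B27) against Day 16, from 2 to 6 and 3 to 8 in RPMI_glcM/B27 and HPLM/B27 against Day 30 RPMI/B27, and stayed at 0 between HPLM/B27 and RPMI_glcM/B27. The rescaled counts ranged from 9 to 15, 12 to 14, 14 to 18, 10 to 14, 16 to 24 and 0 to 3 in the same order.

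The replicate numbers are not stated to pair wells: same-numbered libraries had correlations of -0.07 to 0.21 in their deviations from the group means, 6 of 24 pairs were over 0.1, and 9 of 16 libraries correlated best with their own number. A replicate block gave 11 for HPLM/B27 against Day 16, and 8 and 9 for RPMI_glcM/B27 and HPLM/B27 against Day 30 RPMI/B27, and 20, 13 and 0 in the other comparisons.

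In HPLM/B27 against Day 16, genes just below 0 on TPM were called above 0 after rescaling and by limma-voom: FH (0.30 and 0.30), PDHB (0.32 and 0.31), DLD (0.28 and 0.27), SUCLA2 (0.28 and 0.28) and DLST (0.26 and 0.26). PDHA1 in RPMI_glcM/B27 against Day 16 was at 6.99e-06 after rescaling. Low read numbers limit PC and ME3.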
